A study of Rattus norvegicus with 12 samples.

Results

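Smooth muscle cells and pericytes, together called mural cells, wrap the vessels of a muscle, and 10 genes by which they are commonly recognised were followed here: Acta2, Myh11, Tagln, Cnn1, Smtn, Rgs5, Pdgfrb, Cspg4, Notch3 and Mcam. They were taken by name from the deposited table, where each name has 1 row, 10 of 30560 genes. The table holds raw RNA sequencing counts for the inner red gastrocnemius, a calf muscle, of 6 wild-type male Wistar Kyoto rats aged 9 weeks that had standard chow. From each animal came 1 library of whole muscle, made from snap-frozen tissue without further treatment, and 1 library of mitochondria, which were pulled from a fresh piece of the muscle by immunoprecipitation and exposed to proteinase K and RNase A. Ribosomal RNA was depleted in both kinds of library, made from 50 ng of muscle RNA but only 10 ng of RNA from mitochondria, so the groups also differ in tissue handling and input. The mitochondria could come from any cell of the tissue. The question of the study, per its title, was where noncoding RNAs encoded in the nucleus are located, and none of the 10 markers is of that kind.

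Arterial smooth muscle contracts through smooth muscle actin and myosin and the proteins that bind them, and these genes are switched on by serum response factor with its partner myocardin, at DNA elements called CArG boxes. Pericytes sit on capillaries, are drawn to new vessels by PDGF-B from endothelium acting on the receptor encoded by Pdgfrb, and depend on Notch3 to mature. Their RNAs are nuclear transcripts translated in the cytoplasm. In a bulk sample, fewer cells of a type and less RNA per cell cannot be told apart.

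Depth differed between the groups, from 24309444 to 32055355 counts per library in muscle and from 720111 to 1785865 in mitochondria. Genes with at least 1 count nevertheless numbered 16931 to 17776 per library in muscle and 27803 to 28708 in mitochondria. The mitochondrial genome took 26.4% to 35.9% of the counts in muscle and 12.9% to 51.5% in mitochondria. CPM below is the usual scaling of counts to the total of a library, and nuclear CPM is the same with only the counts outside the mitochondrial genome in the total. Neither is corrected for transcript length, so levels are compared between groups and not between genes. The summed level of the 10 markers was 797 to 1217 nuclear CPM in muscle and 745 to 818 in mitochondria. Their sums thus overlapped, while single markers moved apart from each other. Rgs5, Acta2 and Tagln were lower in every mitochondria library than in any muscle library, Cnn1 was higher in every one, and the other 6 overlapped between groups in CPM. Across the 24679 genes tested, groups that did not overlap in CPM were found on the lower side in 6.77% and on the higher side in 79.5%. In nuclear CPM the same 3 markers lay lower without overlap, beside 7.34% of all genes. Mean nuclear CPM in mitochondria was 24.5 for Rgs5, 28.7 for Acta2, 27.3 for Tagln and 27.1 for Cnn1. The median nuclear gene had 21.8 to 22.7 there, so these levels lie near that of an ordinary gene.

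**Figure D1:**
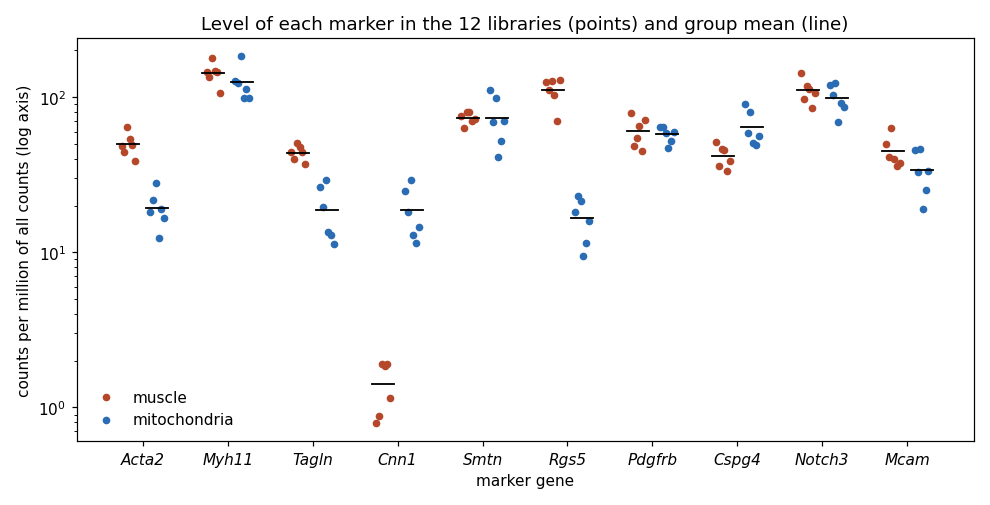
CPM (log axis) of the 10 marker genes in the 6 whole muscle and 6 mitochondria libraries, 1 point per library, with the group mean as a line. Acta2, Tagln and Rgs5 lie lower in mitochondria, Cnn1 lies higher, from at most 1.92 in muscle to at least 11.5, and the remaining genes overlap.

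Tests were run with the quasi-likelihood method of edgeR and TMM scaling, which sets the libraries level on a trimmed middle of the genes, and called at a Benjamini-Hochberg adjusted p under 0.05 over all genes tested. All 10 markers passed the filter for low counts. Of these, 9 fell and 1, Cnn1, rose, where 30.3% of all genes tested fell and 63% rose. The median log2 fold change, mitochondria over muscle, was -2.31 over the 10 markers and 2.51 over all genes. The latter depends on which genes pass the filter: it was 1.18 to 1.21 without any single muscle library, 3.56 with no filter and 0.78 after thinning all libraries to the smallest total, where the marker medians were -2.25 to -2.15, -2.38 and, over 9 markers, -1.27. With total counts as the only scaling, 4 markers fell (Rgs5, Acta2, Tagln and Mcam) and 2 rose (Cnn1 and Cspg4), beside 9.03% and 84.3% of all genes. On that scale the median was -0.20 for the markers and 4.61 for all genes. Nuclear counts as library size gave the same 4 and 2 markers, beside 9.29% and 85.6%. Relative to mitochondrial genome counts only Rgs5 fell and only Cnn1 rose, beside 4.4% and 80.7%. The calls for Rgs5 and Cnn1 thus held under these 4 scalings, and those for the other 8 did not hold under all of them. With all 12 libraries, the 10 markers lay below the median of all genes under each of the 4. With TMM and any single muscle library left out, Cnn1 lay above that median (1.51 to 1.76), but passed the filter only through the mitochondria libraries. Each fold change is therefore given below under TMM and under total counts.

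**Figure D2:**
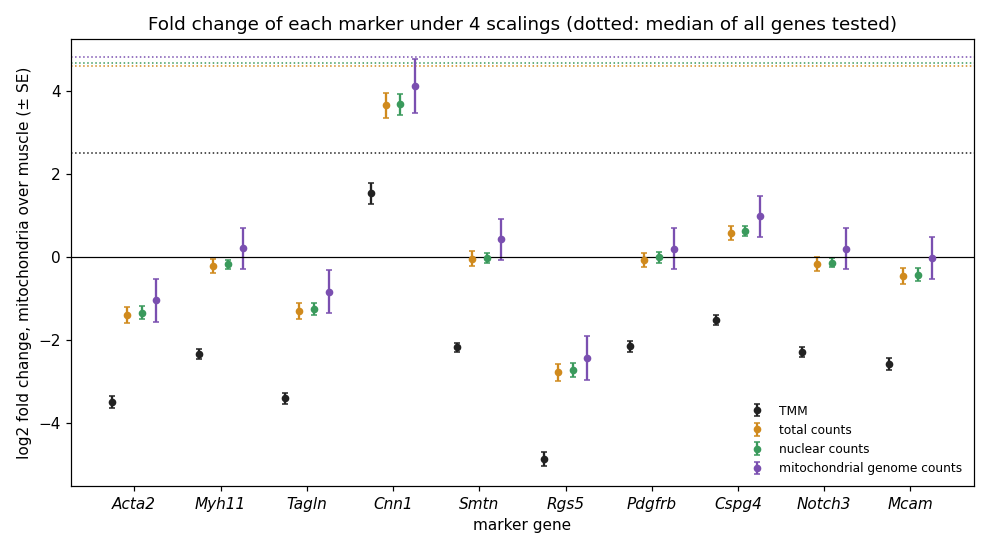
Log2 fold change, mitochondria over muscle, with its standard error, of each marker under TMM, total counts, nuclear counts and mitochondrial genome counts as scaling, with the median of all genes tested as a dotted line of the same colour (2.51, 4.61, 4.67 and 4.81). Rgs5 stays below 0 and Cnn1 above 0 under the 4 scalings, and Cspg4 changes side.

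Acta2 (ENSRNOG00000058039) encodes the actin of smooth muscle. It had 38.6, 48.6 and 64.3 CPM in muscle (lowest, median and highest of 6 libraries) and 12.3, 18.5 and 28.1 in mitochondria. The groups did not overlap, and each animal had less in mitochondria. Muscle replicate 3 was the highest and replicate 6 the lowest of their group. It fell in both fits, with a log2 fold change of -3.49 ± 0.14 with TMM (SE, n = 6 per group, edgeR adjusted p = 4.99e-20) and of -1.40 ± 0.19 with total counts (edgeR adjusted p = 4.49e-10). In mitochondria it rests on 13 to 32 counts per library.

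Upstream stretches are shown for Acta2 with its CArG elements and for Rgs5 and Cnn1 as the markers whose calls held under the 4 scalings, each as the 250 bases before the RefSeq start site of the newer assembly GRCr8, not the mRatBN7.2 of the counts. Capitals mark a CArG box, by which is meant 10 bases with CC and GG around a core of 6 bases, searched here with at most 1 C or G in the core, a pattern that reads the same on both strands. Acta2 lies at chr1:241172504-241172753 on the minus strand, Rgs5 at chr13:84380827-84381076 on the plus strand and Cnn1 at chr8:28908187-28908436 on the plus strand.
Acta2: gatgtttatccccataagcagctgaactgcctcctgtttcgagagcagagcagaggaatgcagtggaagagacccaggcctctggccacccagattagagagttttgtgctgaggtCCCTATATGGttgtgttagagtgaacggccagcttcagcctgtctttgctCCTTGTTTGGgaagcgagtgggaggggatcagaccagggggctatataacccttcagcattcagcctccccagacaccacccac
Rgs5: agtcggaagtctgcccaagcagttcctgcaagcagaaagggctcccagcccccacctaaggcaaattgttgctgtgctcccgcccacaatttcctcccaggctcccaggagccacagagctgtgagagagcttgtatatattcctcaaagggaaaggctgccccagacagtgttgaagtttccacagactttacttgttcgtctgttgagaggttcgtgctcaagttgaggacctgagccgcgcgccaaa
Cnn1: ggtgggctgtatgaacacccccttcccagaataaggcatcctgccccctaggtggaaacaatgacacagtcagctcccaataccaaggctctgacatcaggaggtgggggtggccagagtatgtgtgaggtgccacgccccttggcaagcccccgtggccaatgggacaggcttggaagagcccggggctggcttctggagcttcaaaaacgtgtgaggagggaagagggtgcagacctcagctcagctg

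The Acta2 stretch held 2 matches, CCCTATATGG, which begins 134 bases before the start, and CCTTGTTTGG, which begins 84 bases before it. No other of the 6 markers found in the RefSeq promoter table (Smtn, Cspg4, Notch3, Rgs5 and Cnn1 besides Acta2) had a match in its window, which says only that these letters are not there. Among 33469 promoters, 8.08% held such a match in the same window, and 1.497% held one with only A and T in the core, which none of the 6 did. Myh11, Tagln, Pdgfrb and Mcam were not matched in the table.

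Other actins are close to Acta2 in sequence, and the sources used here do not say how reads that match several places were counted, so part of its counts may belong to them. Acta1, the actin of skeletal muscle fibres, went from 23812 ± 3674 CPM to 43.5 ± 6.09 (SD over 6 libraries, muscle before mitochondria). For each Acta1 count there were 0.00175 to 0.00289 Acta2 counts in muscle and 0.272 to 0.543 in mitochondria, a ratio that needs no scaling between libraries. Actg2, the other smooth muscle actin, best known from gut and bladder, had 1.74 ± 0.994 CPM in muscle and 23.02 ± 5.90 in mitochondria, opposite to Acta2 (edgeR log2 fold change 1.58, adjusted p = 2.51e-06, and 3.68 with total counts). The cardiac actin Actc1 went from 30.8 ± 11.5 to 14.03 ± 3.47, and the cytoplasmic Actb from 445 ± 80.7 to 18.3 ± 6.17 and Actg1 (ENSRNOG00000036701) from 61.4 ± 15.5 to 21.1 ± 7.61 (edgeR with TMM, each lower, with adjusted p = 1.15e-14 for Actc1, 4.62e-25 for Actb and 3.08e-19 for Actg1). With TMM 5 of these 6 actins thus fell and Actg2 rose, where 30.3% of all genes tested fell and 63% rose. With all 12 libraries the rise of Actg2 lay below the median of all genes, 2.51 with TMM and 4.61 with total counts.

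Tagln (ENSRNOG00000017628) encodes transgelin, an actin-binding protein of the calponin family. Its level was 36.9, 44.0 and 50.4 CPM in muscle and 11.3, 16.5 and 29.3 in mitochondria. The groups did not overlap, and muscle replicates 3 and 6 were again the highest and the lowest. It also fell in both fits, by a log2 fold change of -3.41 ± 0.14 with TMM (edgeR adjusted p = 2.47e-20) and of -1.31 ± 0.20 with total counts (edgeR adjusted p = 8.22e-09).

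Myh11 (ENSRNOG00000057880) encodes the myosin heavy chain of smooth muscle, the motor that works with the actin of Acta2. It had 106, 145 and 180 CPM in muscle and 98.6, 118 and 184 in mitochondria. The groups overlapped over nearly their whole range, and 5 of 6 animals had less in mitochondria. It fell by 2.34 ± 0.12 (log2) with TMM (edgeR adjusted p = 1.67e-17), and with total counts the difference of -0.21 ± 0.17 did not pass (edgeR adjusted p = 0.211). Within libraries, Acta2 had 0.328 to 0.368 counts for each Myh11 count in muscle and 0.125 to 0.175 in mitochondria. Tagln had 0.280 to 0.349 and 0.114 to 0.207. Whatever the scaling, Acta2 and Tagln therefore did not keep their proportion to Myh11.

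Cnn1 (ENSRNOG00000027736) encodes calponin 1, which binds actin and restrains the myosin motor in smooth muscle. It had 0.799, 1.499 and 1.92 CPM in muscle and 11.5, 16.4 and 29.3 in mitochondria. Counts were of the same order in both groups, 24 to 61 in muscle and 17 to 27 in mitochondria, although the mitochondria libraries were far smaller. Each animal had more in mitochondria, by 6.02-fold to 31.3-fold in CPM. It rose by 1.53 ± 0.24 (log2) with TMM (edgeR adjusted p = 8.57e-07) and by 3.65 ± 0.30 with total counts (edgeR adjusted p = 1.43e-19). With total counts this is below the median of all genes, and with TMM it is below it with all 12 libraries and above it without any single muscle library. In the fits without a muscle library Cnn1 passed the filter only through the mitochondria libraries, so a fall could hardly have been called there. Although Cnn1 is a defining marker of contractile smooth muscle, it stayed under 2 CPM in each whole muscle library. The 12 markers listed for liver, brain and airway all rose with TMM and with total counts, beside 63% and 84.3% of all genes tested. Their sum was 0.672 to 1.54 nuclear CPM in muscle, where 5 of them had no count, and 497 to 610 in mitochondria. At such levels in muscle they passed the filter only through the mitochondria libraries, so a fall could not have been called. The part of these markers in the Cnn1 result was not tested.

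Smtn (ENSRNOG00000019451) encodes smoothelin, a protein of contractile smooth muscle that lies along actin filaments. Muscle libraries had 63.1, 74.0 and 80.6 CPM and mitochondria libraries 40.9, 69.3 and 111. The mitochondria libraries spread to both sides of the muscle range, with 3 of 6 animals lower. With TMM it fell by 2.18 ± 0.12 (log2, edgeR adjusted p = 3.04e-17), and with total counts the difference was -0.044 ± 0.17 (edgeR adjusted p = 0.807).

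Rgs5 (ENSRNOG00000002730), a regulator that shortens G protein signals and a widely used pericyte marker, fell furthest of the 10 under the 4 scalings shown. It had 69.9, 118 and 130 CPM in muscle and 9.52, 17.01 and 22.9 in mitochondria. The groups were far apart, and muscle replicate 5 alone was below 100 CPM in its group. Its mean was 6.69-fold lower in mitochondria by CPM. Its log2 fold change was -4.87 ± 0.16 with TMM (edgeR adjusted p = 2.95e-22), -2.78 ± 0.21 with total counts (edgeR adjusted p = 1.06e-21) and, with the mitochondrial genome as reference, -2.44 ± 0.53 (edgeR adjusted p = 7.57e-06). The mitochondria libraries had 13 to 34 Rgs5 counts each, and the lowest, 13, has an exact 95% Poisson interval of 6.92 to 22.2 counts, for counting error only.

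Pdgfrb (ENSRNOG00000018461) encodes the receptor for PDGF-B. It had 45.2, 59.8 and 79.4 CPM in muscle and 47.0, 59.2 and 64.0 in mitochondria. The mitochondria values lay inside the muscle range. With TMM it fell by 2.16 ± 0.13 (log2, edgeR adjusted p = 6.89e-16), and with total counts the difference was -0.080 ± 0.17 (edgeR adjusted p = 0.646). Rgs5 and Pdgfrb, both used to mark pericytes, parted within libraries, with 1.54 to 2.31 Rgs5 counts for each Pdgfrb count in muscle and 0.202 to 0.365 in mitochondria.

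Notch3 (ENSRNOG00000004346), the Notch receptor of mural cells, had 84.5, 110 and 143 CPM in muscle and 68.9, 97.3 and 123 in mitochondria. The groups overlapped, with 3 of 6 animals lower. It fell by 2.29 ± 0.11 (log2) with TMM (edgeR adjusted p = 3.79e-18), against -0.18 ± 0.17 with total counts (edgeR adjusted p = 0.300). In contrast to Rgs5, Notch3 kept an overlapping ratio to Pdgfrb, 1.51 to 2.16 in muscle and 1.44 to 2.10 in mitochondria.

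Cspg4 (ENSRNOG00000017208) encodes the NG2 proteoglycan of the pericyte surface. Its level was 33.4, 42.3 and 51.2 CPM in muscle and 48.8, 57.3 and 90.3 in mitochondria. All 6 animals had more in mitochondria, and in nuclear CPM the groups did not overlap, as for 81.7% of all genes tested on the higher side. With TMM it fell by 1.53 ± 0.12 (log2, edgeR adjusted p = 1.70e-13), and with total counts it rose by 0.58 ± 0.17 (edgeR adjusted p = 0.00126), so its direction depends on the scaling. In the RefSeq annotation of GRCr8 Cspg4 overlaps Cimap1c and a tRNA gene, Trnap-agg41, neither of which has a row of that name in the table. No other marker overlaps a gene there.

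Mcam (ENSRNOG00000007726) encodes CD146, an adhesion molecule of mural cells that endothelium carries too. It had 35.9, 40.5 and 63.3 CPM in muscle and 19.04, 33.1 and 46.2 in mitochondria. The groups overlapped, although each animal had less in mitochondria. It fell in both fits, with a log2 fold change of -2.58 ± 0.15 for TMM (edgeR adjusted p = 1.74e-16) and -0.46 ± 0.19 for total counts (edgeR adjusted p = 0.0191).

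Taking each marker as a share of the summed counts of the 10 needs no scaling between libraries. Such shares are tied, so that when some shrink others must grow. Rgs5 made up 16.3% ± 2.79 of the sum in muscle and 3.13% ± 0.658 in mitochondria (n = 6 each, with the SD). Acta2 went from 7.32% ± 0.994 to 3.68% ± 0.570 and Tagln from 6.48% ± 0.679 to 3.49% ± 0.678. Cspg4 went from 6.15% ± 0.408 to 12.2% ± 1.29 and Cnn1 from 0.211% ± 0.0840 to 3.45% ± 0.547. In these 5 markers the libraries of the groups did not overlap, and in the other 5 they did. Myh11 held the largest mean share in both groups, 21.1% ± 3.001 and 23.8% ± 2.81, in counts not corrected for length.

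**Figure D3:**
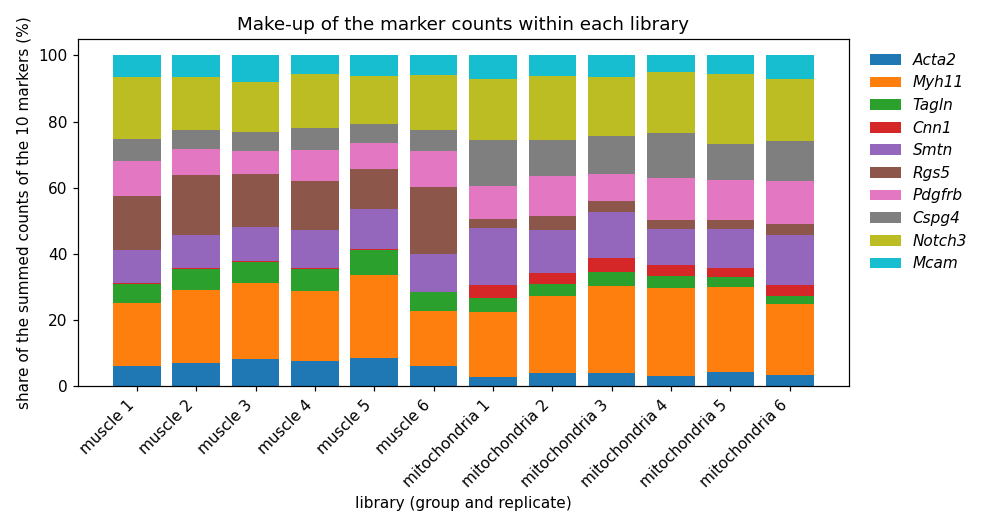
Share of each marker (%) in the summed counts of the 10 markers, 1 bar per library, muscle on the left and mitochondria on the right. The Rgs5 band narrows from 12.1% to 20.3% of the sum in muscle to 2.55% to 4.30% in mitochondria, the Cspg4 band widens, and a Cnn1 band of 2.63% to 4.20% is visible in mitochondria.

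The place of a marker among all nuclear genes of its library gives another view that needs no scaling. The median nuclear gene had 0.128 to 0.172 nuclear CPM in muscle and 21.8 to 22.7 in mitochondria. Rgs5 lay between percentiles 96.4 and 98.3 of nuclear genes by counts in muscle and between 46.9 and 62.4 in mitochondria. Acta2 moved from the range of 92.7 to 96.0 to that of 50.8 to 63.1, and Tagln from 92.4 to 94.6 to 47.5 to 64.4. Mcam moved from 92.4 to 95.9 down to 69.8 to 83.9. Cnn1, whose CPM rose, did not gain in rank, with 59.4 to 64.7 in muscle and 46.9 to 64.4 in mitochondria. Myh11, at 97.9 to 98.8 in muscle, was at 98.9 to 99.5 in mitochondria, and Notch3, at 97.1 to 98.3, was at 98.3 to 98.8. Smtn, Pdgfrb and Cspg4 had overlapping ranks, with 87.8 for Pdgfrb as the lowest in mitochondria.

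**Figure D4:**
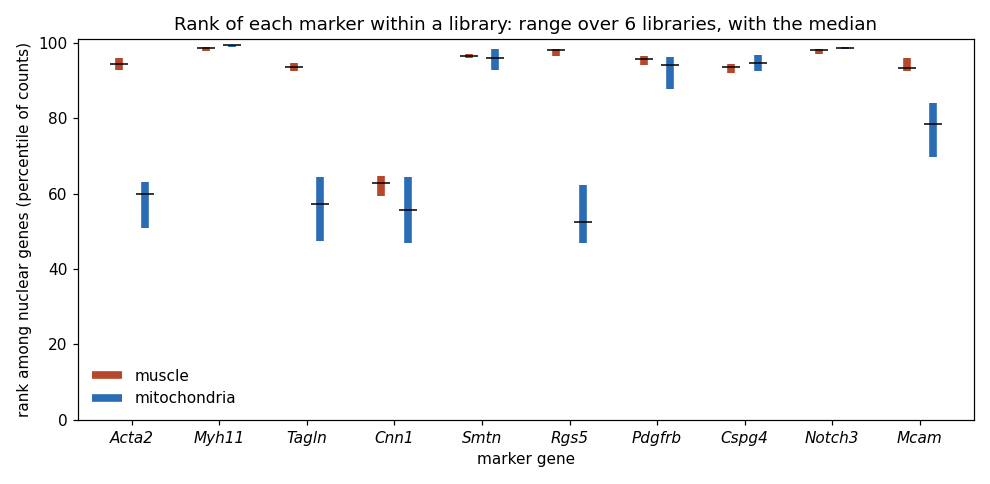
Percentile of each marker among all nuclear genes of a library, by counts, as the range over 6 libraries of a group (bar) with the median (line). Acta2, Tagln and Rgs5 go from above 92 in muscle to between 46.9 and 64.4 in mitochondria, where Cnn1 lies too, while Myh11 and Notch3 stay above 97.

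Among the mitochondria libraries, CPM values moved with the share of the mitochondrial genome. Replicate 3, in which that genome took 12.9% of counts, had the highest CPM of its group for 6 of the 10 markers, and replicate 4, in which it took 51.5%, had the lowest for 7. In nuclear CPM the coefficient of variation over the 6 libraries was smaller for 9 of the 10 markers, Pdgfrb being the exception. Notch3 spanned 141 to 156 nuclear CPM there, a coefficient of variation of 4.07%, against 20.8% in CPM. Over the muscle libraries the same change of scale lowered it for 1 marker of 10.

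Among the 6 muscle libraries, Tagln and Myh11 varied together with Acta2 in CPM from animal to animal. Replicate 3 had the highest CPM for 5 of the 10 markers, and replicate 5 the lowest for 5, namely Rgs5, Pdgfrb, Cspg4, Notch3 and Mcam. Against Acta2, in log2 of CPM plus a pseudocount of 1, Tagln had a Pearson r of 0.98 and a Spearman rho of 0.94 (exact permutation p = 0.00556 and 0.0167, n = 6, adjusted over 9 relations 0.0438 and 0.075). Myh11 had r = 0.96 and rho = 1.00 (exact permutation p = 0.00972 and 0.00278, n = 6, adjusted 0.0438 and 0.025). Without replicates 3 and 6, the farthest from the Acta2 median, r was 0.99 for Tagln and 0.85 for Myh11. With TMM-scaled CPM r was 0.99 and 0.96, and the adjusted exact permutation p values, 0.05 for Tagln and 0.0875 for Myh11, were no longer under 0.05. Without the 2 libraries farthest from the Acta2 median on that scale, r was 0.98 for Tagln but 0.55 for Myh11.

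For the other 7 markers no relation with Acta2 passed the test. Rgs5 had r = -0.057 and rho = -0.31 (exact permutation p = 0.875 and 0.564, n = 6, adjusted 0.875 and 0.634), and Pdgfrb r = -0.21 and rho = -0.26 (exact permutation p = 0.690 and 0.658, n = 6, adjusted 0.803 and 0.658). Cspg4 and Notch3 had r of 0.44 and 0.22. Smtn, Cnn1 and Mcam had r of 0.66, 0.64 and 0.71, none of which passed (exact permutation test, adjusted p = 0.328, 0.333 and 0.328, n = 6). Without replicates 3 and 6 r was 0.89 for Smtn, 0.73 for Cnn1 and -0.18 for Mcam. With 6 animals such relations are loosely bounded, the genes of a library share its depth, and whether the relation with Acta2 differs between contractile and pericyte markers was not tested. The summed endothelial markers were also highest in muscle replicate 3 (964 CPM) and lowest in replicate 5 (639 CPM), and the summed fibroblast markers were highest in replicate 6 (8899 CPM, the next library having 4279), whose part in these relations was not tested.

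**Figure D5:**
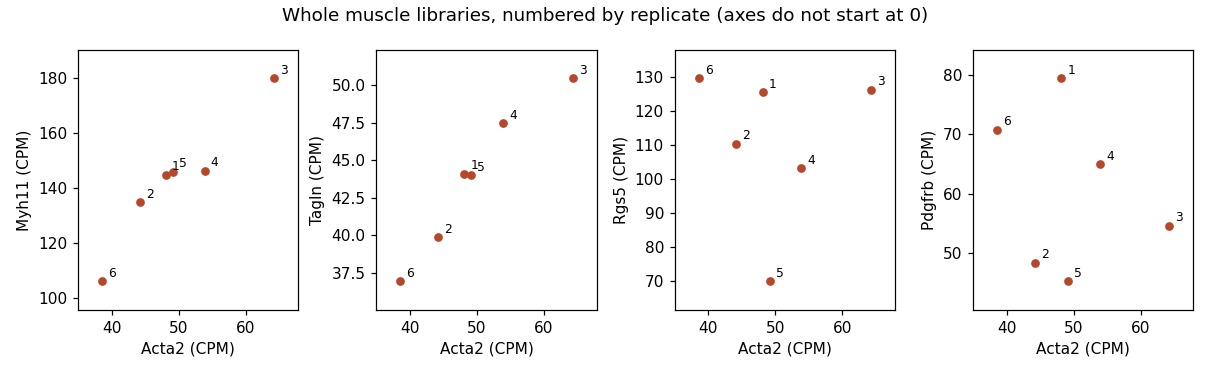
Myh11, Tagln, Rgs5 and Pdgfrb against Acta2, in CPM, in the 6 whole muscle libraries, numbered by replicate (axes do not start at 0). Myh11 and Tagln rise with Acta2 (Pearson r of 0.96 and 0.98 on the log2 scale), and Rgs5 and Pdgfrb show r of -0.057 and -0.21.

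Other genes of the same cells were taken from lists, whose counts are to be read beside all genes tested, of which 30.3% fell and 63% rose with TMM (median 2.51), and 9.03% fell and 84.3% rose with total counts (median 4.61). Of 22 further genes of the contractile apparatus, 19 fell and 3 rose with TMM (median log2 fold change -2.93), and 13 fell and 6 rose with total counts (median -0.82). The most abundant in muscle were the tropomyosins Tpm1 (5688 ± 1473 CPM in muscle and 57.8 ± 17.7 in mitochondria) and Tpm2 (4934 ± 565 and 50.1 ± 6.21) and the intermediate filament gene Des (1934 ± 263 and 35.8 ± 9.25), which skeletal fibres express too. All of these 3 fell under both scalings (edgeR adjusted p = 1.49e-23 for Tpm1, 2.14e-24 for Tpm2 and 3.68e-25 for Des with TMM). Their counts in a bulk sample cannot be divided between mural cells and skeletal fibres.

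Of 17 further pericyte-associated genes, 14 fell and 1 rose with TMM (median -1.40; 30.3% and 63% of all genes), and 4 fell and 9 rose with total counts (median 0.68; 9.03% and 84.3% of all genes). Abcc9, the regulatory subunit of a potassium channel of mural cells, had 188 ± 10.7 CPM in muscle and 80.4 ± 17.3 in mitochondria. Colec11, a secreted collectin, had 106 ± 23.3 and 34.2 ± 9.48, and Steap4, a metal reductase, 42.6 ± 6.23 and 26.5 ± 4.65. These 3 fell under both scalings, with log2 fold changes of -3.36, -3.77 and -2.78 with TMM and -1.25, -1.67 and -0.70 with total counts (edgeR, largest adjusted p 0.000245, for Steap4).

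Of 34 genes that recruit mural cells or set their identity, such as PDGF, Notch and TGF-beta ligands and receptors and the myocardin factors, 24 fell and 4 rose with TMM (median -1.02; 30.3% and 63% of all genes), and 5 fell and 24 rose with total counts (median 1.08; 9.03% and 84.3% of all genes). Eng, a TGF-beta co-receptor of endothelium, had 74.1 ± 14.7 CPM in muscle and 44.2 ± 10.9 in mitochondria, the receptor Tgfbr2 69.1 ± 7.61 and 38.4 ± 13.996, and Srf, the serum response factor, 64.7 ± 3.83 and 39.6 ± 14.9. These 3 fell under both scalings (edgeR adjusted p with total counts 5.08e-05 for Eng, 5.62e-06 for Tgfbr2 and 6.15e-05 for Srf). Foxf2, a forkhead factor known from brain pericytes, had 11 counts over all muscle libraries and rose from 0.0629 ± 0.0584 to 11.3 ± 5.25 CPM (edgeR log2 fold change 5.13, adjusted p = 6.14e-13). It was named as the largest change of its list. With so few muscle counts it passed the filter only through the mitochondria libraries, so a fall could not have been called.

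For markers of the other cells of the tissue, the shares of all genes tested to set beside the counts are again 30.3% lower and 63% higher with TMM, and 9.03% lower and 84.3% higher with total counts. With TMM all 12 endothelial markers fell, and with total counts 5 fell and 1 rose. Of 12 fibroblast markers 11 fell and 1 rose with TMM, and 8 fell and 3 rose with total counts. All 13 skeletal fibre markers fell under both, from a summed 279920 to 343330 nuclear CPM in muscle to 2947 to 5732 in mitochondria. Of 12 macrophage and leukocyte markers 5 fell and 4 rose with TMM, and 1 fell and 10 rose with total counts, a share near that of all genes. Of 8 Schwann cell markers 3 fell and 2 rose with TMM, and 2 fell and 6 rose with total counts. No marker of these 5 lists was at 0 in all libraries of a group. Their part in the results on the mural markers was not tested.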

How the data were processed

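The deposited table gives the authors' raw gene counts in 12 columns, 1 per library, each matched to a sample by its description. Per the submitters' processing notes, the build was mRatBN7.2 and the tools were STAR 2.7.11a, HTSeq, cutadapt 4.6 and FastQC 0.74. What annotation release, strand setting and treatment of reads with several matches were used is not stated there, so reads of overlapping or near-identical genes cannot be told apart.

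CPM was computed from the deposited counts. Mitochondrial genome genes were those named Mt- or AY172581, 37 in all. Tests used edgeR 4.0.16 (glmQLFit and glmQLFTest, R 4.3.3) on all genes that passed filterByExpr with a minimum count of 10. Scaling was by TMM, with no term besides group and Benjamini-Hochberg adjustment at 0.05. The fit was tried on simulated counts in which few genes changed, evenly up and down. In the data 63% of genes rose and 30.3% fell, a setting that was not simulated, so the trial does not bear on TMM scaling here. The standard error is the absolute log2 fold change over the square root of F. Correlations used exact permutation of pairings. DESeq2 1.42.0 was an alternative, and SciPy 1.17.1 gave intervals.

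The members and lists were chosen with earlier results of these data known. Genes named are the 10 members, the actins, and, by rule, the 3 most abundant in muscle of each mural list with the one that changed most. Those of the other cell type lists were left out for room. Higd1b, Pln, Cd36, Cldn5 and Myh1, also listed, had no row of that name. The 2 libraries of a replicate number come from the same animal, per the labels. Deviations from the group means correlated by -0.00747 to 0.0201 within the 6 pairs.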

Additional observations from a re-analysis of the deposited data

Results flagged for a closer look

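In the mitochondria libraries, Myh11 had 184 CPM in replicate 3, against 128 in the next highest library, a gap that took 0.656 of the whole range of the group, more than Dixon's 95% critical value for 6 samples. Replicate 3 was also the library with the smallest share of the mitochondrial genome, 12.9%, and its part in the value was not tested. In nuclear CPM the group spanned 160 to 211. Chance flags about 1 in 20 such groups, and 20 groups were checked.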

How the results depend on the processing

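RLE factors, DESeq2, no filter and the animal as a replicate block kept the direction and the call of all 10 markers, with 9 lower and 1 higher under the block. Of all 24679 genes tested, 6564 were lower and 16415 higher with RLE factors, and 6511 and 16381 with DESeq2. The block gave 7426 and 15512, and no filter 7673 and 19910 of 29900. Each library left out in turn also kept them, with 9 lower and 1 higher throughout. Log2 fold changes were then between -5.00 and -4.71 for Rgs5 and between 1.43 and 1.76 for Cnn1. Of all genes, 6925 to 6988 of 20003 to 20007 were lower and 11478 to 11556 higher without a muscle library. Without a mitochondria library 7462 to 7514 of 25287 to 25696 were lower and 15961 to 16363 higher. Without a muscle library the filter, tied to the median library size, lay above the Cnn1 level in muscle. Cnn1 then passed only through the mitochondria libraries, so its fall could hardly have been called. After thinning to 720111 counts per library, 9 markers were lower and 0 higher, because Cnn1 no longer passed the filter. Of all 11931 genes tested there, 3599 were lower and 6552 higher. The folds shrank there, to -3.49 for Rgs5, -2.55 for Acta2, -2.11 for Tagln, -1.29 for Mcam, -1.27 for Myh11, -1.18 for Pdgfrb, -1.14 for Notch3, -1.01 for Smtn and -0.44 for Cspg4 (edgeR adjusted p = 0.0114). With total counts 4 were lower and 2 higher. There Myh11 (-0.21), Smtn (-0.044), Pdgfrb (-0.080) and Notch3 (-0.18) no longer passed, and Cspg4 turned to 0.58. With nuclear counts 4 were lower and 2 higher, with -0.18 for Myh11, -0.034 for Smtn, -0.015 for Pdgfrb, -0.14 for Notch3 and 0.62 for Cspg4. Relative to mitochondrial genome counts 1 was lower and 1 higher. Acta2 (-1.05), Tagln (-0.84) and Mcam (-0.024) no longer passed, and Myh11 (0.20), Smtn (0.42), Pdgfrb (0.19), Notch3 (0.20) and Cspg4 (0.98) turned. These scalings differ from TMM in what they hold level between libraries, and the cause of each change was not tested. The 2 relations with Acta2 that passed remained 2 with nuclear CPM and with a pseudocount of 0.1, and were 0 with TMM-scaled CPM. Leaving out single libraries was not run for these relations. Depth limits the mitochondria side, where Acta2, Tagln, Cnn1 and Rgs5 have 13 to 34 counts per library.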
